A study of Mus musculus with 2 samples.

Results

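The contractile cells among cultured costal-cartilage-derived stem cells (CDSCs) are the cells with the highest combined RNA level of Acta2, Tagln and Cnn1. Acta2 encodes smooth muscle alpha-actin, Tagln encodes the actin cross-linking protein transgelin, and Cnn1 encodes calponin, which binds actin and slows the myosin motor. The cells were chosen by these measured levels alone. For each cell, the UMIs (unique molecular identifiers, each standing for 1 captured transcript) of a gene were divided by all UMIs of the cell and by the mean of that share over all kept cells, and the 3 values were averaged into a score. The 10% of kept cells with the highest score are the contractile cells. This gave 454 cells of 4543 kept cells in the cultured library and of 15502 kept cells in the whole series, and they were set against the other 4089 cultured cells.

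Smooth muscle cells, and fibroblasts that have become myofibroblasts, carry bundles of actin and myosin called stress fibres, with which they pull on their surroundings. Their contractile genes are switched on together by serum response factor (SRF), which binds a DNA element called the CArG box, with the help of cofactors of the myocardin family. Stromal cells placed on stiff plastic in serum often form stress fibres. Smooth muscle cells proper also make the myosin heavy chain Myh11 and the intermediate filament protein desmin (Des), while pericytes, which wrap small vessels, are recognised by Rgs5, Kcnj8 and Abcc9.

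The study had sequenced 1 library of primary CDSCs and 1 library of CDSCs grown to passages 2 to 3, and asked whether culture changes the cells. The cells came from rib cartilage of neonatal mice that carried either CD45.1 or ZsGreen as a donor mark, had been freed by enzymes and sorted as CD45-negative and CD51-positive, and were grown in serum-containing medium. For both libraries the tissue is labelled as bone marrow, and how many animals were pooled was not stated. With 1 library for each group and cells that are not replicates, no test could be made, and every interval below covers counting error only.

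The cultured library held 10798 cell barcodes, and 4543 were kept. A barcode was left out when it had fewer than 500 genes or 5000 UMIs, or when over 10% of its UMIs were mitochondrial. This removed 57.9% of the barcodes, 6159 of them for too few UMIs. Kept cells had a median of 66411 UMIs. The libraries shared 32 barcodes, 12 of them among the kept cells of each. Scrublet, a doublet caller, marked only 3 cells by its own threshold and had therefore not worked. When the cells with the highest doublet scores were listed instead, up to the number expected from the barcodes recovered, 8.37% of the contractile cells and 8.66% of the others were on the list.

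The limit of the contractile cells did not fall at a gap in the scores. Scores of the contractile cells ran from 2.38 over a median of 4.61 to 34.6, where 1 is the mean of all kept cells. Other cells had a median score of 0.175. The last 3 cells inside the limit scored 2.389, 2.387 and 2.383, and the first 3 outside it scored 2.375, 2.374 and 2.373. Because the limit was set at a fixed share of cells, these scores cannot tell whether part of the cells forms a separate group. Levels of a group of cells are given as CPM, the UMIs of the gene summed over the group, divided by all UMIs of the group and multiplied by 1000000. Acta2 stood at 6629 CPM in the contractile cells and 527 CPM in the others. Tagln stood at 5212 and 774 CPM, and Cnn1 at 444 and 10.6 CPM. These differences were fixed by the choice and are a description.

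**Figure D1:**
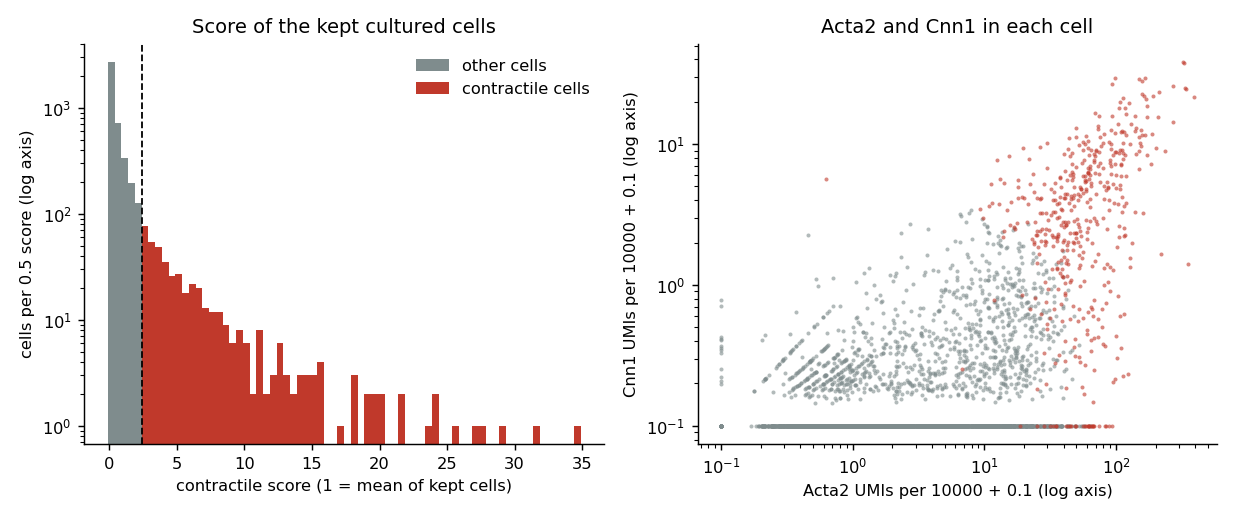
Left, histogram of the contractile score of the 4543 kept cultured cells (cells per 0.5 score, log axis), with the lowest score of the contractile cells as a dashed line. Right, Acta2 against Cnn1 in each cell, in UMIs per 10000 UMIs of the cell plus 0.1 (log axes). The scores run on without a gap at 2.38, and contractile cells without a Cnn1 UMI lie on the lower edge.

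Members were not alike in what gave them their score. Cnn1, the scarcest of the 3 genes, was the largest part of the score in 248 cells, Acta2 in 122 and Tagln in 84. All 3 genes were in the top 10% of kept cells in 233 of the contractile cells, 2 genes in 148 and 1 gene in 73. Of the 454 cells, 424 had a Cnn1 UMI. Per cell, Acta2 ran from 0.526 over a median of 56 to 389 UMIs per 10000. Tagln ran from 3.68 over a median of 45.7 to 205 UMIs per 10000. Cnn1 ran from 0 over a median of 3.18 to 38 UMIs per 10000. The ranges of all 3 genes overlapped with those of the other cells, which reached 63.9, 68.6 and 3.28 UMIs per 10000. Across the 4543 cells, which share a library, the Spearman correlation was 0.78 between Acta2 and Tagln, 0.47 between Acta2 and Cnn1 and 0.47 between Tagln and Cnn1.

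The 3 genes found each other when 1 of them was left out of the score. With a score of Acta2 and Tagln only, 384 of the 454 cells were the same, and Cnn1, which then had no part in the choice, stood at 397 CPM in the chosen cells and 17.3 CPM in the rest. That is a log2 ratio of 4.52 (95% counting interval 4.48 to 4.57). With Acta2 left out, 408 cells were the same, and Acta2 stood at 6208 and 588 CPM. With Tagln left out, 415 cells were the same, and Tagln stood at 4980 and 822 CPM. When cells were chosen on a random draw of 0.5 of their UMIs, 439 of 454 were the same. That draw is part of the UMIs of the first choice, and the scores above share genes with the full score. The numbers of shared cells were thus largely fixed in advance and are a description.

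In size and quality the contractile cells were close to the rest. Their median was 74468 UMIs against 66031 in the others, 7939 genes against 7752, and 2.01% mitochondrial UMIs against 2.38%. The 3 chosen genes alone took 1.23% of all UMIs in the contractile cells and 0.131% in the others.

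Of 8675 genes with at least 10 CPM in either group, not counting the 3 chosen genes, 379 (4.37%) were at least 1.5-fold higher in the contractile cells and 451 (5.2%) at least 1.5-fold lower. Because these are the cells in which the choice was made, the shares are a background for the counts below and not a result. A gene that reached 10 CPM only in the contractile cells could not be called lower. One that reached it only in the others could not be called higher. The median log2 ratio of all these genes was -0.12. With TMM factors in place of library totals this median moved to 0.01, and the counts became 518 higher and 270 lower.

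The other contractile genes of smooth muscle were higher together. Of 15 genes on the list, 11 had at least 10 CPM in either group, and 9 of these were at least 1.5-fold higher and 0 lower, with a median log2 ratio of 1.63. Myh11 and Actg2 reached 10 CPM only in the contractile cells. Summed over the list, the level was 9309 CPM in the contractile cells and 4726 CPM in the others. The higher genes covered the thick filament, the thin filament and the proteins that regulate them.

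On the myosin side, Myl9, the regulatory light chain of smooth muscle and non-muscle myosin, stood at 731 CPM in the contractile cells and 99.1 CPM in the others, a log2 ratio of 2.88 (2.86 to 2.91). Thinned to 5000 UMIs each, 93.4% of contractile cells and 28.7% of the others had a Myl9 UMI, as had 1 of 9 haematopoietic-like cells of the same library (11.1%, exact binomial interval 0.281 to 48.2%; median 35946 UMIs, against 66031 in the others), which should have little of it. Myh11 stood at 21.9 and 0.336 CPM, but only 6.61% of thinned contractile cells had a Myh11 UMI, and the 45 cells with the most of it held 93.1% of its UMIs. Mylk, the kinase that phosphorylates the light chain, stood at 23.5 and 12.8 CPM.

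On the actin side, Actg2, the gamma-actin of smooth muscle, stood at 79.7 and 2.81 CPM, with a UMI in 18.5% and 1.12% of thinned cells. Its median over the contractile cells was 0 UMIs per 10000 and its highest value 30.5, so most of these cells had little of it. Tpm2 and Tpm1, the tropomyosins that lie along the actin filament, were spread more evenly. Tpm2 stood at 1528 and 383 CPM, with medians per cell of 14.3 and 3.03 UMIs per 10000. Tpm1 stood at 2351 and 1100 CPM, a log2 ratio of 1.10 (1.09 to 1.11). Lmod1, leiomodin, which starts new actin filaments in smooth muscle, stood at 147 and 20.1 CPM. Csrp1, a LIM protein of the actin skeleton, stood at 314 and 101 CPM, and Smtn, smoothelin, at 36.9 and 24.0 CPM.

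Not every gene of the list differed by 1.5-fold. Cald1, caldesmon, was abundant in both groups, at 3828 and 2763 CPM. Synpo2, a protein that bundles actin, and Ldb3, a protein of Z-discs, were under 10 CPM in both groups, at 6.48 and 1.03 CPM and at 7.65 and 1.35 CPM. Desmin and Pln, a regulator of the calcium pump, were near 0, with 26 and 11 UMIs over all 454 cells.

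**Figure D2:**
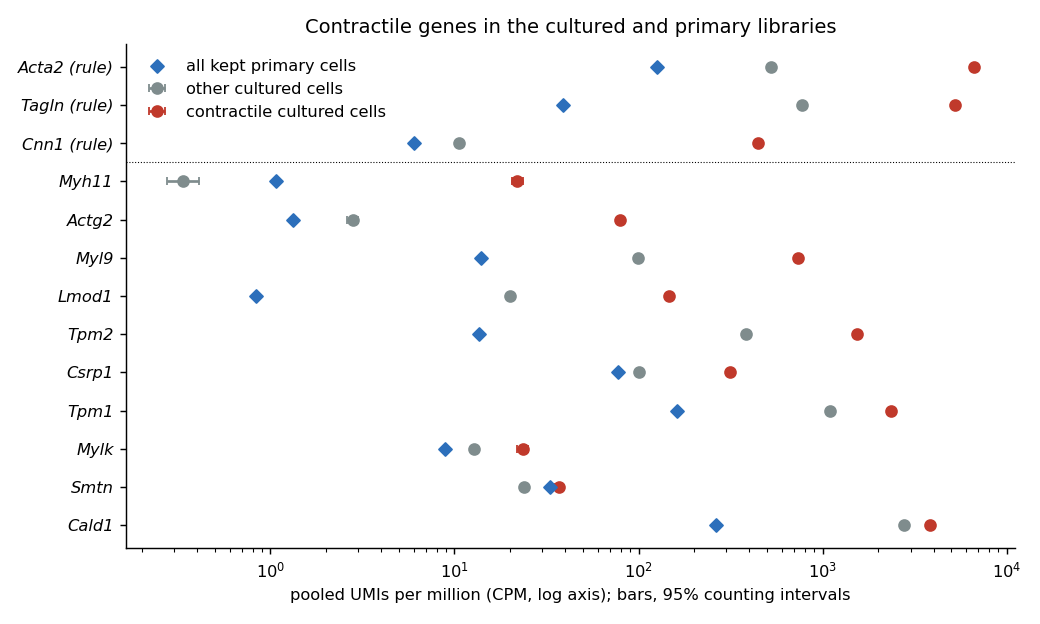
Pooled level (CPM, log axis) of the 3 chosen genes and of the 10 contractile genes with the highest log2 ratios, in the contractile cultured cells, the other cultured cells and all kept primary cells. Horizontal bars are 95% counting intervals of the cultured groups and are mostly smaller than the points. Among the 10 genes that had no part in the choice, Myh11, Actg2, Myl9 and Lmod1 lie farthest apart between the cultured groups, and Cald1 lies closest.

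Other actins and the relatives of calponin and transgelin were higher too, both those of muscle and those that non-muscle cells use. Of 9 such paralogs, with Actg2 counted here again, 7 had at least 10 CPM in either group, and all of these 7 were at least 1.5-fold higher, beside the background of 4.37%. Actg2 and Acta1 reached 10 CPM only in the contractile cells. Actb and Actg1, the cytoplasmic actins, stood at 7132 and 4001 CPM and at 3391 and 2013 CPM. Acta1, the actin of skeletal muscle, stood at 83.3 and 6.87 CPM, and Cnn2, Cnn3 and Tagln2 had log2 ratios of 0.82, 0.62 and 0.67. Reads at the 3' end tell these genes apart only where their ends differ, and how reads shared by near-identical actins were counted was not given in the sources used here. Actc1, the heart actin, had 3 UMIs in the contractile cells.

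Among 23 genes of stress fibres and focal adhesions, 10 were at least 1.5-fold higher and 0 lower. Flna, a filamin that cross-links actin, stood at 569 and 309 CPM, and Actn1, alpha-actinin, at 892 and 576 CPM. Myl6 and Myl12a, light chains of non-muscle myosin, stood at 3413 and 1713 CPM and at 789 and 478 CPM. Fblim1, which ties filamin to adhesion sites, had the highest log2 ratio of the list, 1.37 (1.28 to 1.47). Vcl, vinculin, reached 528 and 352 CPM, a log2 ratio of 0.58 (0.56 to 0.61) that fell just short of 1.5-fold. Myh9, the heavy chain of non-muscle myosin, differed by a log2 ratio of only 0.17, and Zyx, zyxin, was at 393 CPM in the contractile cells and 472 CPM in the others.

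Pooled over all contractile cells, the regulators upstream of these genes showed little. Srf was under 10 CPM in both groups (9.40 and 6.79 CPM), Mrtfa and Mrtfb, its cofactors, had log2 ratios of 0.17 and -0.47, and Myocd, myocardin, had 20 UMIs in the contractile cells. Fhl1, a LIM protein of muscle, was the 1 of 5 tested genes of this list that was at least 1.5-fold higher, at 251 and 85.2 CPM. In the contractile cells of cluster 9, described further on, 3 of 6 tested genes were higher than in the other cells outside it. The share over all genes was 6.86%. These 3 were Srf (11.3 and 6.77 CPM), Mrtfa (207 and 117 CPM) and Fhl1 (445 and 84.7 CPM). Srf, with 104 UMIs, reached 10 CPM only in the contractile cells of cluster 9, so it could not have been called lower. Myocd, under 10 CPM, was at 1.52 and 0.269 CPM. In the contractile cells outside cluster 9, 1 of 5 was higher. Of 13 genes of the YAP and TEAD pathway, which senses tension, 3 were higher. These were Ankrd1 at 48.9 and 9.49 CPM, F3 (tissue factor) at 203 and 96.0 CPM and Ccn2 at 349 and 218 CPM. The 45 cells with the most Ankrd1 held 87.9% of its UMIs. Ccn1, another target, was at 241 and 220 CPM.

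Transforming growth factor beta (TGF-beta) drives fibroblasts to become myofibroblasts, and genes of its pathway went both ways. Of 17 genes, 2 were at least 1.5-fold higher and 4 lower. Tgfb3, a ligand, stood at 56.9 and 22.3 CPM, and Inhba, which forms the ligand activin A, at 204 and 89.5 CPM. Tgfbr2 and Tgfbr3, receptors, stood at 189 and 329 CPM and at 113 and 178 CPM, and Ltbp1, which stores the latent ligand in the matrix, at 662 and 1008 CPM. Tgfbi, a target gene, was the fourth that was lower, at 8.02 and 16 CPM. With TMM factors 2 were higher and 2 lower. The target Pmepa1 had a log2 ratio of 0.07.

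Because SRF acts through the CArG box, the 250 bases upstream of RefSeq transcription starts (build GRCm38.p6) were searched on both strands for it, and for MCAT, the CATTCC element bound by TEAD factors in muscle genes. The CArG box was searched as CC, 6 bases that are each A or T, and GG, with no mismatch allowed. It was in 1.47% of all 32851 windows, and MCAT was in 12.6%. Counted by gene, 291 of the 379 higher genes had a window, and 18 of these (6.19%) held a CArG box, against 1.46% of the 6984 tested genes with a window and 1.14% of the 351 lower genes with one. The 18 were Myl9, Acta1, Fhl1, Dmd, Actg1, Cnn2, Myl6, Cbr2, Ckap2l, Fermt2, Filip1l, H2ac20, Kif20b, Lmcd1, Lurap1l, Myom1, Stbd1 and Tyms. Of the 11 tested contractile genes outside the rule, 8 had a window, and 1 of these, Myl9, held a CArG box. MCAT was in 18.9% of the higher genes, 20.8% of the lower genes and 12.6% of the tested genes. Of 23 contractile and leading genes that were looked up by symbol, 16 had a window, 4 of them with a CArG box, 7 with MCAT and 6 with neither. The 7 genes without a window, which could not be searched, included Tagln, Actg2, Myh11, Nexn, Sfrp1 and Thy1. The stretches below hold the CArG boxes of genes that were higher, in capitals, 5′ to 3′ on the strand of the gene, and end before the start of transcription. Their coordinates are chr2:156775278-156775337 (plus strand) for Myl9, chr8:123894791-123894873 (minus strand) for Acta1, chrX:56779556-56779615 (plus strand) for Fhl1 and chrX:82948747-82948806 (plus strand) for Dmd.
Myl9: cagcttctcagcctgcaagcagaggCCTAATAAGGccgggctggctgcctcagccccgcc
Acta1: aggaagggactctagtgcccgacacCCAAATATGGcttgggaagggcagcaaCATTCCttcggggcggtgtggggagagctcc
Fhl1: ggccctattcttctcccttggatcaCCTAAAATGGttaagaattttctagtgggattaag
Dmd: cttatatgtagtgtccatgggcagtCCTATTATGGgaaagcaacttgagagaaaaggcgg

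The CArG box began 161 bases before the start in Myl9, 73 in Acta1, 102 in Fhl1 and 98 in Dmd, and Acta1 also held MCAT 46 bases before it, with no overlap of the motifs. The stretches that follow show MCAT in capitals for Acta2, which helped to choose the cells, and for Lmod1 and Tpm1. They lie at chr19:34255489-34255544 (minus strand) for Acta2, chr1:135324658-135324713 (plus strand) for Lmod1 and chr9:67049239-67049294 (minus strand) for Tpm1, and MCAT began 146, 130 and 56 bases before the start.
Acta2: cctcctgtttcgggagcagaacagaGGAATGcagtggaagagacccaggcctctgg
Lmod1: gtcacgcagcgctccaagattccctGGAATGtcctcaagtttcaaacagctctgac
Tpm1: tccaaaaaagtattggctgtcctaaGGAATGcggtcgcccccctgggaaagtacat
A match is a string of letters in this window and not a measured binding site. A CArG box with a mismatch, or one outside the window, was not searched for, so a gene without a match, such as Acta2, may still have one.

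Collagens of the myofibroblast matrix were higher in part. Of 18 tested matrix genes, 6 were at least 1.5-fold higher and 0 lower. Col1a2, a chain of type I collagen, stood at 563 and 138 CPM, while its partner chain Col1a1 stood at 975 and 671 CPM. Col3a1 was at 321 and 129 CPM, and the basement membrane chains Col4a1 and Col4a2 were at 270 and 107 CPM and at 201 and 108 CPM. Loxl2, a collagen cross-linking enzyme, and Cthrc1 had log2 ratios of 0.79 and 0.73. Fn1 (fibronectin), Tnc (tenascin C), Lox and Sparc stayed within 1.5-fold, and Postn, periostin, was under 10 CPM in both groups, at 8.98 and 2.31 CPM. Of 8 tested metalloproteinases and inhibitors, Mmp13 (3.43 and 24.9 CPM) and Mmp3 (log2 ratio -1.92) were lower and 0 were higher.

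Genes of the stromal cells that support blood stem cells in marrow were mixed, and Spp1 was by far the most abundant of those that were lower. Of 12 tested genes of this list, 4 were at least 1.5-fold lower and 1 was higher, and with TMM factors 2 were lower and 1 was higher, as Kitl (log2 ratio -0.58) and Angpt1 (-0.46) then stayed within 1.5-fold. Spp1, osteopontin, stood at 3581 CPM in the contractile cells and 6961 CPM in the others, with medians per cell of 19.3 and 46.4 UMIs per 10000 and ranges that overlapped. Kitl, stem cell factor, was at 39.6 and 64.6 CPM, Pdgfra, a stromal growth factor receptor, at 52.7 and 89.9 CPM, and Angpt1 at 12.9 and 19.4 CPM. Vcam1, an adhesion molecule, was higher at 35.6 and 16.8 CPM. Cxcl12, which holds blood stem cells in the marrow, was at 488 and 556 CPM, and Prrx1, a factor of limb and skeletal mesenchyme, at 463 and 484 CPM. In the contractile cells of the cluster richest in them, described further on, 4 of the 12 genes were higher (Vcam1, Ly6a, Csf1 and Ebf3) and 4 lower (Spp1, Kitl, Pdgfra and Foxc1), with a median log2 ratio of 0.21.

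Markers of other cell types gave the contractile cells no cell type name. The pericyte markers Rgs5, Kcnj8 and Abcc9 had 24, 3 and 11 UMIs over all 454 cells, and Cspg4 (59.6 and 38.3 CPM) was the 1 of 3 tested mural genes that was at least 1.5-fold higher. With Myh11 in few cells and desmin and myocardin under 1 CPM, the defining set of smooth muscle was incomplete as well. Skeletal muscle markers summed to 8.76 and 13.8 CPM, and the 1 tested gene of that list was lower. Myog, Pax7 and Ckm had 0 UMIs, below the limit of 0.0797 CPM that a count of 0 allows. Myod1 went the other way, with 25 UMIs in the contractile cells of cluster 9, described further on, and 5 in those outside it. The other cells held 4 Myod1 UMIs inside that cluster and 5 outside it. Endothelial markers summed to 1.75 and 0.979 CPM and haematopoietic markers to 9.75 and 37.4 CPM. Of the chondrocyte markers, Col2a1 stood at 434 and 498 CPM, Sox9 at 76.6 and 81.9 CPM and Acan at 3.21 and 2.41 CPM. Comp was lower at 20.9 and 49.7 CPM. Thy1 and Scx, markers of fibroblasts and tendon cells, were higher at 54.1 and 2.12 CPM and at 111 and 69.1 CPM, whereas Dcn, decorin, was lower at 36.9 and 68.8 CPM. None of the 12 immediate early genes, which respond to handling, reached 1.5-fold in either direction, and the 4 Y-linked genes summed to 191 and 237 CPM.

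Cell cycle genes were higher in the contractile cells. All 20 G2M genes and 12 of 14 tested S phase genes were at least 1.5-fold higher, beside the background of 4.37%, and 0 were lower. Aurka, Aurkb, Bub1 and Mcm2 reached 10 CPM only in the contractile cells. The median log2 ratio was 0.89 for the G2M list and 0.73 for the S list. Top2a, which untangles DNA before division, stood at 121 and 67.0 CPM, Mki67 at 113 and 67.1 CPM, Ube2c at 133 and 59.8 CPM and Cdk1 at 78.2 and 37.8 CPM. With every cell thinned to 5000 UMIs, 30.4% of the contractile cells (exact binomial interval 26.2 to 34.9%) and 14.1% of the others (13 to 15.2%) had at least 5 UMIs of the G2M list. Unthinned, the shares were 71.4% and 55.2%. For the S list the thinned shares were 21.4% (17.7 to 25.4%) and 9.12% (8.26 to 10.0%), and unthinned 87.7% and 83.3%. None of 9 cell cycle inhibitors and targets of p53 differed by 1.5-fold. Cdkn1a was at 645 and 637 CPM.

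When the cells with at least 5 UMIs of either list were left out of both groups, the contractile genes still stood apart, with 8 of 11 at least 1.5-fold higher. The number of all genes at least 1.5-fold higher then dropped from 379 to 233.

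Outside the fixed lists, the 12 genes with the highest and the 12 with the lowest log2 ratio were taken, provided that they reached 50 CPM in a group. Mitochondrial genes and ribosomal protein genes were left out of the ranking. The highest, after Actg2, Acta1, Myl9, Lmod1, Tpm2, Thy1 and Col1a2 named above, were Rpl39l, Cav1, Dmd, Sfrp1 and Abi3bp. Rpl39l, a paralog of the ribosomal protein gene Rpl39, stood at 62.9 and 3.81 CPM. It was let stand although ribosomal protein genes were left out, a reading of the rule made after its values were seen. Without it the next gene was Nexn, nexilin, a protein that binds actin filaments, at 130 and 32.6 CPM. Cav1, the coat protein of caveolae, stood at 142 and 20.3 CPM. Dmd, dystrophin, which links actin to the membrane, stood at 114 and 19.0 CPM. Sfrp1, a secreted antagonist of Wnt, stood at 110 and 19.8 CPM, and Abi3bp, a matrix protein, at 75.4 and 14.6 CPM.

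Among the lowest genes were Mme, Angptl7, Kazn, Sned1, Gpx3, Cp, Grem1, Phactr1, Hp, Ccser1 and Rora, with log2 ratios from -1.56 to -1.18. Grem1, which blocks bone morphogenetic proteins and marks skeletal stem cells, stood at 498 CPM in the contractile cells and 1164 CPM in the others. Mme, a surface peptidase, stood at 24.1 and 71.0 CPM, and Rora, a nuclear receptor, at 176 and 397 CPM. Gpx3, Cp and Hp, secreted proteins that handle peroxide, copper and haemoglobin, stood at 29.1 and 72.0 CPM, at 72.4 and 176 CPM and at 53.6 and 124 CPM. Each of these genes had UMIs in both groups.

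**Figure D3:**
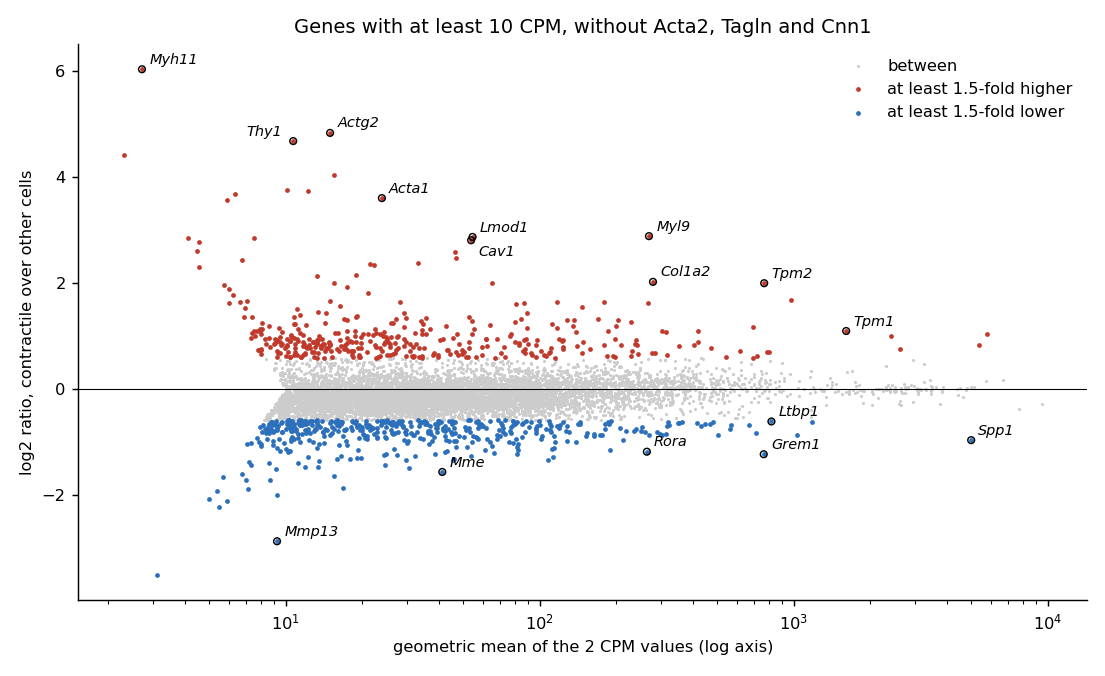
Log2 ratio of the contractile over the other cultured cells against the geometric mean of the 2 CPM values (log axis) for the 8675 genes with at least 10 CPM in either group, each point a gene. The 379 genes at least 1.5-fold higher reach farther from 0 than the 451 lower ones, with Myh11, Actg2 and Thy1 at the top.

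The contractile cells lay close to each other, but not in a single place. Cells were placed in 10 principal components of 2000 variable genes, with the 3 chosen genes, the contractile list, the paralogs and the stress fibre list left out. Among the 20 nearest neighbours of a contractile cell, 41.5% on average were contractile, and among those of another cell 5.26%, where an even spread would give 9.99%. The median contractile cell had 30% contractile neighbours, and 28 of the 454 had none. Leiden clustering of the same components gave 10 clusters, numbered by size. Contractile cells were found in 9 of them, and the 9 cells of cluster 10, led by haematopoietic genes such as C1qc and Pf4, held 0.

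Cluster 9, with 199 cells, was the richest, with 121 contractile cells (60.8%, exact binomial interval 53.7 to 67.6%). Among its leading genes were Ptn, Thy1, Rpl39l, Crabp1, Itga8, Igfbp5, Il1rn and Slc1a3. Of these, only Thy1 is a fixed marker, on the fibroblast and tendon list, and the cluster was given no cell type name. Of 5 tested genes of that list, 3 were higher and 1 lower in its contractile cells than in the other cells outside the cluster. The shares over all genes were 6.86% and 8.43%. Cluster 7, with 311 cells led by histone and replication genes, held 77 (24.8%, 20.1 to 29.9%), and cluster 4, with 493 cells led by mitotic genes such as Cenpf and Aspm, held 65 (13.2%, 10.3 to 16.5%). The largest clusters held few. In cluster 1, led by Gpc3 and Aspn, 17 of 857 cells were contractile, and in cluster 2, led by Mmp13 and Gdf10, 20 of 727. Clusters 3, 5, 6 and 8 held between 4.67% and 10% contractile cells.

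The 121 contractile cells inside cluster 9 and the 333 outside it differed most in the cell cycle. Against the 4011 other cells outside cluster 9, 598 genes (6.86%) were higher and 735 (8.43%) lower in the contractile cells inside it, and 363 (4.19%) higher and 538 (6.22%) lower in those outside it. The G2M list summed to 315 CPM in the contractile cells inside the cluster, 1574 CPM in those outside it and 690 CPM in the other cells outside it. Of the G2M genes, 0 were higher and 14 of 17 tested were lower inside the cluster, while 20 of 20 were higher outside it. The S list summed to 271, 646 and 331 CPM in the same order. Because clusters were made from the genes of these cells, cell cycle genes included, these values are a description. Contractile genes were higher in both, with 11 of 13 tested genes inside the cluster and 7 of 10 outside it. Myh11, Actg2, Synpo2 and Ldb3 inside the cluster, and Actg2 outside it, reached 10 CPM only in the contractile cells.

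Several of the leading genes were strongest inside cluster 9. Thy1 stood at 142 CPM in the contractile cells inside it, 25.5 CPM in those outside it and 1.56 CPM in the other cells outside it. Cav1 stood at 319, 84.7 and 19.3 CPM, Col1a2 at 1334, 313 and 117 CPM, Myh11 at 68.6, 6.82 and 0.328 CPM, and Fhl1 at 445, 188 and 84.7 CPM. Col1a2 was as high in the 78 cells of cluster 9 that were not contractile, at 1436 CPM. Col3a1 and Abi3bp were higher in these 78 cells than in the contractile cells of the cluster, at 849 against 642 CPM and at 209 against 154 CPM. Thy1, Cav1, Myh11 and Fhl1 were lower in the 78 cells, at 35.1, 77.0, 0.826 and 118 CPM. Acta1 was turned round, at 35.3 CPM inside the cluster and 98.8 CPM outside it. Dmd was at 116 and 113 CPM, so it did not follow the cluster. Myl9, at 859, 690 and 97.5 CPM, and Tpm2, at 1885, 1413 and 382 CPM, were high in both.

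**Figure D4:**
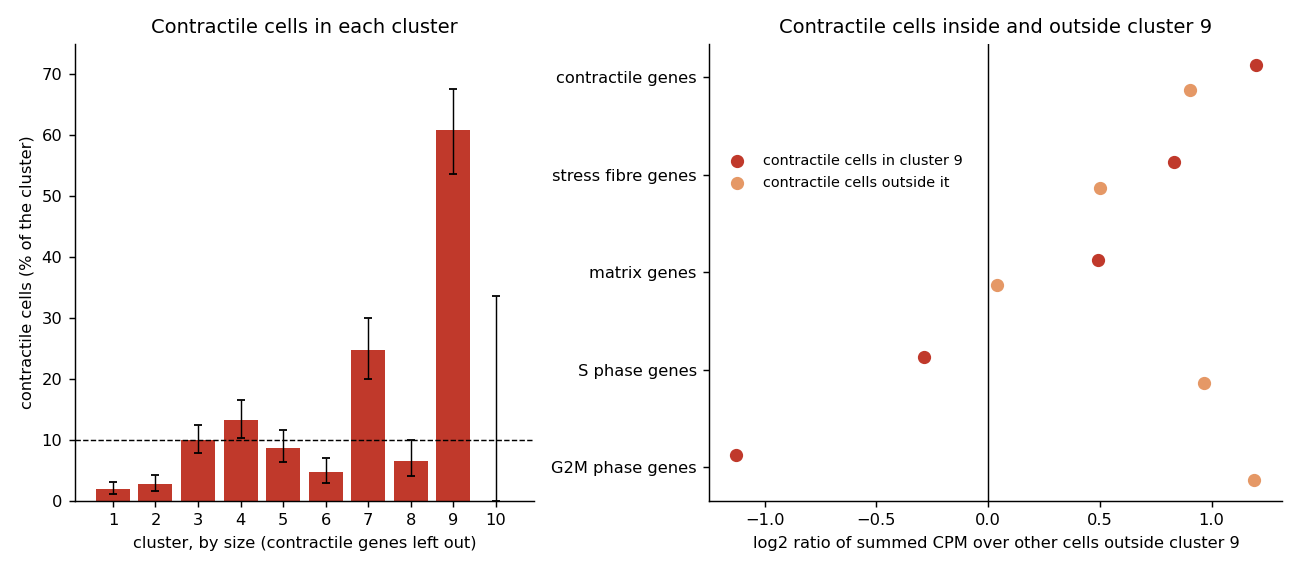
Left, share of contractile cells in each of the 10 clusters, with exact 95% binomial intervals and the overall share of 10% as a dashed line. Right, log2 ratio of the summed CPM of 5 gene lists in the contractile cells inside and outside cluster 9, over the other cells outside it. Contractile genes lie right of 0 in both, and G2M genes lie left of 0 inside the cluster and right of 0 outside it.

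The contractile genes, taken as a list, were also higher when contractile cells were compared with the other cells of their own cluster. In the 8 clusters with at least 20 contractile cells, the summed contractile list was 1.58 to 2.48 times as high as in the rest of the cluster. In cluster 9, 9 of 13 tested genes of the list were at least 1.5-fold higher and 1 was lower. Myh11, Actg2, Synpo2 and Ldb3 again reached 10 CPM only in the contractile cells. The lower gene was Mylk, at 31.7 CPM in the contractile cells and 64.0 CPM in the rest of the cluster. Myl9 was higher in 8 of 8 clusters, with log2 ratios of 2.17 to 3.82, and Tpm2 in 8 of 8, with 1.40 to 2.53. Lmod1 (2.21 to 2.85), Csrp1 (0.93 to 2.07) and Actg2 (2.45 to 5.06) were higher in all 8 as well. Grem1 was below the rest in all 8, by log2 ratios of -1.58 to -0.15, and Spp1 in all 8, by -1.37 to -0.15. Col1a2 ranged from -0.11 to 1.78. The G2M sum of the contractile cells was above that of the rest in 7 of 8 clusters, at 1.77 times in cluster 5, 1.59 times in cluster 9 and 1.01 to 1.19 times in the other 5, and was 0.659 times that of the rest in cluster 8. The S sums were 0.897 to 1.36 times those of the rest, above 1 in 4 of 8 clusters.

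Among the contractile cells themselves, some genes were shared and others sat in few cells. The 45 cells with the most UMIs of a gene held 27.8% of all Myl9 UMIs, 25.9% of Tpm1, 29.3% of Tpm2, 28.0% of Csrp1 and 35.3% of Lmod1. For Myh11 they held 93.1%, for Actg2 80.9%, for Acta1 77.5%, for Sfrp1 70.2%, for Thy1 62.0% and for Dmd 61.6%. The pooled levels of this second set describe a minority of the contractile cells.

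Along the score the contractile genes were higher step by step and did not begin at the limit. Cells were ordered by score into 10 equal groups, the last of which is the contractile cells. The contractile list outside the rule summed to 3120 CPM in the lowest group, 6839 CPM in the ninth and 9309 CPM in the contractile cells, and was higher at each of the 9 steps. Myl9 went from 9.28 over 354 to 731 CPM and Tpm2 from 190 over 784 to 1528 CPM, also higher at each step. Actg2 and Myh11 lay mostly in the last group, with Actg2 at 10.3 CPM and Myh11 at 0.457 CPM in the ninth. Spp1 was lower at each of the 9 steps, from 9807 over 4759 to 3581 CPM. The rest of the niche list had no such order, at 1701, 1571 and 1663 CPM, and was higher at 4 of 9 steps. The S list was higher at 8 of 9 steps and the G2M list at 7 of 9. Cxcl12 stood at 383, 557 and 488 CPM.

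**Figure D5:**
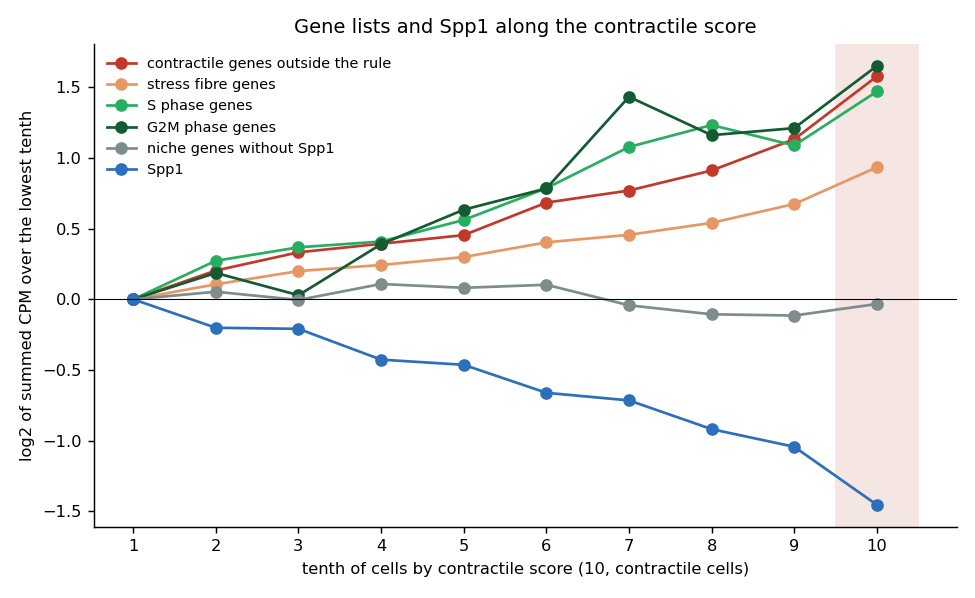
Log2 of the summed CPM of 5 gene lists and of the CPM of Spp1 in 10 equal groups of cells by contractile score, over the lowest group. The shaded group is the contractile cells. Contractile and stress fibre genes are higher at each step, Spp1 is lower at each step, the niche genes without it stay near 0, and the cell cycle lists are higher in the upper groups with 1 or 2 steps down.

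Few cells of the primary library reached the same score, and those that did had lower levels of the contractile genes. With the score scaled as in the cultured library, 22 of 10959 primary cells (0.201%, exact binomial interval 0.126 to 0.304%) reached the limit. They held 1510 CPM of Acta2, 1086 CPM of Tagln and 625 CPM of Cnn1, so Acta2 and Tagln were below and Cnn1 above the levels of the contractile cultured cells. Their contractile list summed to 2332 CPM, against 802 CPM in the rest of the primary cells, 4726 CPM in the other cultured cells and 9309 CPM in the contractile cultured cells. Over all primary cells, Acta2 stood at 126 CPM, Tagln at 38.7 CPM, Cnn1 at 6.05 CPM, Myl9 at 13.9 CPM, Tpm2 at 13.5 CPM and Lmod1 at 0.834 CPM. The other cultured cells, which were not chosen for these genes, were above the primary cells for Acta2, Tagln, Myl9, Tpm1, Tpm2 and Cald1, the last at 2763 and 262 CPM. Primary cells had a median of 10432 UMIs against 66411 in the cultured library, and library and culture cannot be told apart with 1 library each.

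Free RNA from broken cells can add UMIs of abundant genes to any droplet. The 5336 cultured barcodes with fewer than 1000 UMIs held 1284 CPM of Acta2, 948 CPM of Tagln and 69.4 CPM of Cnn1, levels between those of the contractile and the other cells. The 9 haematopoietic-like cells of cluster 10, with a median of 35946 UMIs, should lack these genes and held 274 CPM of Acta2, 397 CPM of Tagln and 2.47 CPM of Cnn1, from 1 UMI. At 5000 UMIs, 44.4% of those 9 cells, 57.3% of the other cultured cells and 99.8% of the contractile cells had an Acta2 UMI. For Cnn1 the shares in the same order were 0 of 9 (exact binomial interval 0 to 33.6%), 4.18% and 69.8%. The Acta2 and Tagln levels of the other cells were thus within 2-fold of those of the 9 cells. For several genes named above, the 9 cells stood at or above the other cells, with Myl9 at 118 against 99.1 CPM, Lmod1 at 44.4 against 20.1 CPM, Actg2 at 17.3 against 2.81 CPM and Cav1 at 78.9 against 20.3 CPM, all below the contractile cells. These rest on 48, 18, 7 and 32 UMIs. The levels of these 4 genes in the other cells were thus no higher than in cells that should lack them, and the part of free RNA was not tested.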

How the data were processed

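Single-cell RNA was captured with 10x 3' chemistry from 1 library of primary and 1 library of cultured CDSCs. The authors made the deposited UMI counts per gene and cell barcode with Cell Ranger 7.0.0, per the file headers, from reads aligned to mm10 (GRCm38) by the study's methods. The labels also list GRCm39. The annotation release and the study's own thresholds for cells were not given in the sources used here, and Cell Ranger, not the study's later filter, decided which barcodes are in the files. The tables hold 21849 genes and no cell annotation.

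Cells were filtered, scored and split as the report describes, in Python 3.11.15 with numpy 2.4.6 and scipy 1.17.1. Counts were summed over the contractile cells and over the other cells and scaled to CPM, with counts under 3 raised to 3. A gene was called at a ratio of at least 1.5 in either direction, with at least 10 CPM in either group. Intervals are exact Poisson, exact binomial and exact conditional 95% intervals and cover counting error only, because the cells are not replicates. Shares of cells were taken after drawing 5000 UMIs from each cell. Scanpy 1.11.5 and leidenalg 0.10.2 gave components and clusters (resolution 0.5, 20 neighbours), with 49 genes left out. TMM factors came from edgeR 4.0.16 in R 4.3.3. The scripts were tested on simulated data.

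Named were the 3 genes of the rule, members of 23 gene lists at 10 CPM or above, the 12 highest and 12 lowest genes, and list members under 10 CPM that define another cell type. The leading genes of clusters and the 18 genes with a CArG box were named, and the niche list without Spp1 was summed, after their values were seen. The members and the lists were chosen with earlier results of these data known. Promoter windows came from RefSeq, build GRCm38.p6. A few genes and 1 gene list that the rule would name are not reported here.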

Additional observations from a re-analysis of the deposited data

How the results depend on the processing

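Of 558 values of 31 named genes and 168 medians of 8 gene lists under the alternatives run, 3 changed sign, all within 1.5-fold of level in the main comparison. Among these, the median of the TGF-beta pathway went from -0.09 to 0.03 on the log2 scale both with TMM factors and at 50 CPM. Over all 23 lists with a value, the median took both signs in 6, each near 0 in the main comparison: the TGF-beta, SRF and MRTF (-0.20 to 0.11), YAP and TEAD (-0.03 to 0.17), pericyte (-0.37 to 0.22), fibroblast and tendon (-0.24 to 0.46) and heat shock lists (-0.13 to 0.22). Of the gene values, 273 lay outside their counting interval. The count of contractile genes at least 1.5-fold higher was 9 and ranged from 6 (at least 50 CPM) to 11 (at least 1 CPM, or the top 5% of cells). The 379 higher genes became 233 without cycling cells, 706 at 1 CPM, 141 at 50 CPM and 137 at 2-fold. The 451 lower genes became 879 when cells were thinned to 5000 UMIs and scored again, 286 with the top 20% of cells, 270 with TMM factors, 1055 at 1 CPM, 177 at 50 CPM and 81 at 2-fold. With TMM factors the share of higher genes among those called went from 45.7% to 65.7%, as the median of all genes shifted by 0.13 on the log2 scale.

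The share of cycling cells depended on the limit. With at least 3, at least 10 and unthinned at least 5 UMIs of the S list, it was 33.7%, 7.05% and 87.7% of the contractile cells and 17.7%, 3.08% and 83.3% of the others. For the G2M list it was 35.9%, 21.6% and 71.4% against 17.5%, 9.88% and 55.2%. With cluster 9 left out, which was decided once the data had been seen, the contractile cells reached 26.7% (S) and 38.4% (G2M). The mean share of contractile neighbours was 43.4% for contractile and 5.58% for other cells with 30 components, 45.8% and 4.6% with no gene left out, and 39.9% and 5.50% in thinned cells.

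No paired analysis was possible because each group is 1 library. One library, cells that are not replicates, and a choice made on the same UMIs that were compared limit every value here. Genes under 10 CPM in both the contractile and the other cells, such as Srf and Myocd, were too scarce to compare firmly at this depth.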
